A study of Mus musculus with 25 samples.

Results

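The 10 genes described here are those of the NRF2 antioxidant programme: Nfe2l2, Slc7a11, Gclc, Gclm, Gsr, Txnrd1, Srxn1, Nqo1, Hmox1 and Sod2. They were chosen by symbol, and for each the probe set annotated to that gene alone was taken, of which there was exactly 1 per gene, so that 10 of 19938 named genes and of 35557 probe sets on the Affymetrix Mouse Gene ST array are described. RNA came from cultured neonatal cardiac myocytes of WT mice and of transgenic (TG) mice, in which the ventricular mlc2v promoter drives CHF1/Hey2, a Hairy-related transcriptional repressor, in the myocardium. There were 5 WT and 6 TG cultures kept without serum and 7 WT and 7 TG cultures given 20% fetal bovine serum for 24 hours, with 1 array for each. The methods call the cultures independent. They do not mention separate litters, and a p therefore reflects how much these particular cultures varied.

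NRF2, the transcription factor encoded by Nfe2l2, is held at a low level by KEAP1, which presents it to a CUL3 ubiquitin ligase. Oxidants and electrophiles modify cysteines of KEAP1, whereupon NRF2 accumulates, pairs with a small MAF protein and binds antioxidant response elements near genes of glutathione, thioredoxin and quinone metabolism. In the heart these enzymes are known for limiting oxidative injury, and SOD2, which removes superoxide in the mitochondrial matrix, is counted with them although many other factors control it. Because NRF2 is regulated largely as a protein, its transcript need not follow its activity.

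The start-site regions of the members are shown because the data turn on genes that move together (Gclm with Srxn1) and on one that moves the other way (Sod2). RefSeq windows of 300 bases, build GRCm38.p6, were on hand for 7 of the 10 genes, in 9 windows, and Hmox1, Gclc and Gsr are named only. The core of the antioxidant response element was searched on both strands as TGACNNNGC. It occurred in 4 of the 9 windows (Gclm, Txnrd1, Srxn1 and Nfe2l2) against 12.4% of all 32851 windows. A further form, TGAGNNNGC, was searched after these data had been seen and occurred in 2 of 9 windows (Srxn1 and Slc7a11) against 17.6%. Either form was found in 5 of 9 against 27.8%. The E-box type letters to which Hey proteins bind in vitro were searched too: CACGTG was in 0 of 9 windows (7.15% of all), and CACGCG was in 2 of 9, those of Txnrd1 and Sod2 (9.27% of all). In the 250 bases before each start below, 5′ to 3′ on the gene's strand, capitals mark every match of these motifs, on either strand. The counted core of Srxn1, at +29 to +37 after the start, and the CACGCG of Txnrd1, at +27 to +32, lie outside the printed bases. All of these are matches of letters and not measured binding sites.
Gclm, chr3:122245307-122245556, plus strand: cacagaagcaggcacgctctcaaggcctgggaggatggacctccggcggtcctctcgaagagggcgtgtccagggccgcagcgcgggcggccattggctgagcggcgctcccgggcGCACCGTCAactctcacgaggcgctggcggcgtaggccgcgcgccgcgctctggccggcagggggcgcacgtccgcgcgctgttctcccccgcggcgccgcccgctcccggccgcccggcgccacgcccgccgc
Srxn1, chr2:152105274-152105523, plus strand: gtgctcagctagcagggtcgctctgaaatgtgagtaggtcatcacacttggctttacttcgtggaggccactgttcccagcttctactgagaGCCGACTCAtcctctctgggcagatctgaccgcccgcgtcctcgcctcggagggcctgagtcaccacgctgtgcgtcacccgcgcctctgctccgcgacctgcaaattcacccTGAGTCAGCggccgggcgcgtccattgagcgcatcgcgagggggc
Txnrd1, second window, chr10:82858956-82859205, plus strand: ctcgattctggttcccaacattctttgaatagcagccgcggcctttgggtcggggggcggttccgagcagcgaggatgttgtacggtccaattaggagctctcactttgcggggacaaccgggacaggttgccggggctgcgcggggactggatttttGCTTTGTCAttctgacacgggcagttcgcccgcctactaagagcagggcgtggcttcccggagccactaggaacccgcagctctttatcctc
Sod2, chr17:13007589-13007838, plus strand: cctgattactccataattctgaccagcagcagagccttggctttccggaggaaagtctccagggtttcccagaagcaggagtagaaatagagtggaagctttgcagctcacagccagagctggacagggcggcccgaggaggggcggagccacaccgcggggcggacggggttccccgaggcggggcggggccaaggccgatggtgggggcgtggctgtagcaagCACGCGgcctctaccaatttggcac
Nfe2l2, site only, chr2:75704885-75704913, minus strand: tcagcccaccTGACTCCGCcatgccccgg
In Gclm the capitals are a core read on the minus strand, and in Srxn1 both are of the further form, of which the one nearer the start reads TGAGTCAGC. In Sod2 the capitals are CACGCG, and neither form of the core was matched in its window. The window of Nqo1, which moved with Gclm and Srxn1, held no match of any motif searched. CACGCG was also in a window of Txnrd1, which moved with them too. Whether the letters bear on how the genes moved was not tested.

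Values were log2 intensities from Robust Multichip Analysis (RMA), and a difference of 1 is a doubling of signal. The arrays with serum lay on another scale than those without: their medians were 5.21 to 5.36 against 4.99 to 5.09, and the median residual SD over probe sets was 0.174 against 0.115. TG and WT cultures were therefore compared only within each serum set, with limma over all 35557 probe sets and Benjamini-Hochberg adjustment. Cultures of a group correlated at r = 0.985 to 0.996 over all probe sets. The targeted gene fitted the labels on every array: without serum Hey2 was 6.12 to 6.37 in WT and 7.08 to 8.55 in TG myocytes, and with serum 6.59 to 7.36 in WT and 7.94 to 9.36 in TG myocytes. By limma the log2 difference of Hey2 was 1.58 without serum (unadjusted p = 6.5e-05, adjusted p = 0.853) and 1.81 with serum (adjusted p = 0.00972). The adjusted test without serum thus missed the transgene itself, and a member's failure to pass it there says little.

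Most of the programme lay below WT in TG myocytes, but no member passed the adjusted test. Without serum 8 of 10 members had a lower mean in TG myocytes (54.7% of all probe sets did), with a median log2 difference of -0.25 against -0.01 over all probe sets. With serum 9 of 10 were lower (56.5% of all), with a median of -0.25 against -0.02. By limma the adjusted test was passed by 0 of 10 members in either set, as by 0% and 0.00844% of probe sets. At an unadjusted p under 0.05 there were 0 members without serum (5.64% of all probe sets, 3.33% lower and 2.31% higher in TG) and 2 with serum (10.7% of all), Srxn1 lower (6.31%) and Sod2 higher (4.39%). No member separated TG from WT cultures without overlap in either set, as 0.402% of probe sets did without serum and 0.256% with serum.

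**Figure D1:**
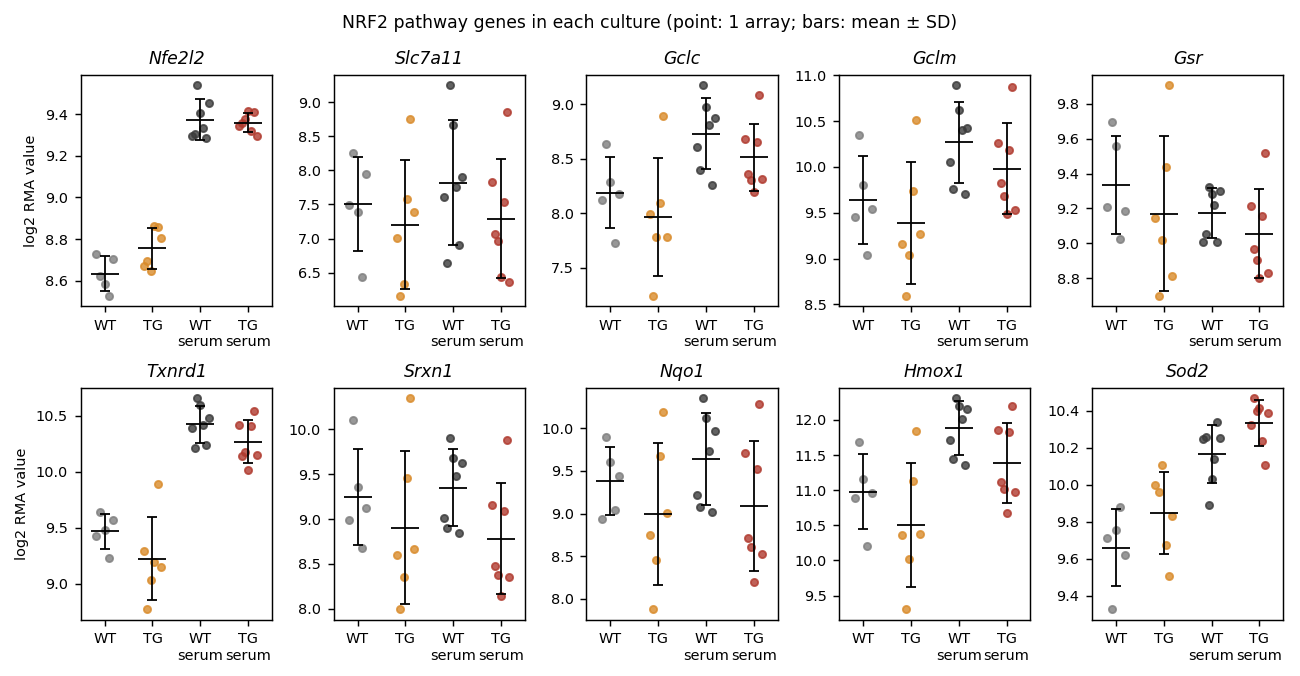
Log2 RMA value (vertical axis) of the 10 genes in every culture of the 4 groups, 1 point per array, with the group mean and SD as bars. The points of WT and TG cultures overlap in every panel, and in most panels of target genes 1 TG culture of each serum set stands above the others of its group, as in Gclm at 10.52 and 10.88. Each panel has its own axis, and heights may be set against each other only within a serum set.

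The transcript of NRF2 itself, Nfe2l2, was the steadiest of the members. Without serum it was 8.73, 8.62, 8.58, 8.53 and 8.70 in the 5 WT cultures, and in TG cultures it ran from 8.65 through a median of 8.75 to 8.86. With serum it ran from 9.29 through 9.34 to 9.54 in WT and from 9.29 through 9.36 to 9.42 in TG cultures. TG cultures were thus all above the WT mean without serum and on both sides of it with serum. The log2 difference was 0.12 ± 0.06 (SE, n = 6 and 5, limma, adjusted p = 0.878) without serum and -0.01 ± 0.05 (n = 7 and 7, adjusted p = 0.943) with serum.

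Glutathione synthesis begins with cystine import by the transporter encoded by Slc7a11, and its limiting step is carried out by glutamate-cysteine ligase, whose catalytic and modifier subunits are encoded by Gclc and Gclm. Slc7a11 had the widest spread of any member: without serum it was 7.50, 8.25, 7.40, 6.43 and 7.94 in WT cultures and 6.16 to 8.76 (median 7.20) in TG cultures, and with serum 6.65 to 9.25 (median 7.76) in WT and 6.37 to 8.86 (median 7.07) in TG cultures. These ranges overlapped almost throughout. Its log2 difference, TG minus WT, was -0.30 ± 0.46 (SE) without and -0.53 ± 0.43 with serum (limma, adjusted p = 0.946 and 0.686). Gclm without serum was 9.46, 10.34, 9.80, 9.04 and 9.55 in WT cultures and 8.59 to 10.52 (median 9.21) in TG cultures. With serum it was 9.71 to 10.89 (median 10.41) in WT and 9.48 to 10.88 (median 9.83) in TG cultures. In each set the highest TG culture was above all WT cultures or all but 1, while the median of the TG cultures was below that of the WT cultures. The difference of Gclm was -0.25 ± 0.32 and -0.29 ± 0.23, that of Gclc -0.23 ± 0.25 and -0.22 ± 0.16, and that of Gsr, which encodes glutathione reductase and returns oxidised glutathione to its reduced form, -0.16 ± 0.21 and -0.12 ± 0.11. Their adjusted limma p ranged from 0.642 to 0.938. Single cultures weighed heavily on these uncalled differences: with 1 culture left out at a time, those without serum ran from -0.61 to -0.09 for Slc7a11, from -0.48 to -0.08 for Gclm, from -0.41 to -0.08 for Gclc and from -0.31 to -0.07 for Gsr, the lowest each without TG 5 and the highest without TG 2 or, for Gclm, WT 2. With serum they ran from -0.79 to -0.29, -0.44 to -0.18, -0.31 to -0.14 and -0.19 to -0.07, the lowest each without TG 6 and the highest without WT 3 or, for Gsr, TG 4.

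In the thioredoxin branch, Srxn1 encodes sulfiredoxin, which repairs overoxidised peroxiredoxins, and Txnrd1 encodes the cytosolic thioredoxin reductase. Without serum Srxn1 was 8.99, 10.10, 9.35, 8.68 and 9.13 in WT cultures and 7.99 to 10.35 (median 8.63) in TG cultures. Of the 6 TG cultures 4 were below the lowest WT culture and 1 was above the highest. With serum it was 8.84 to 9.91 (median 9.48) in WT and 8.14 to 9.89 (median 8.47) in TG cultures, and 4 of 7 TG cultures were below every WT culture. The differences were -0.35 ± 0.40 (SE) without serum (limma, adjusted p = 0.929) and -0.57 ± 0.26 with serum, a TG over WT ratio of 0.674 with a 95% interval of 0.458 to 0.990 (limma, unadjusted p = 0.0451, adjusted p = 0.456). Txnrd1 differed by -0.25 ± 0.16 and -0.16 ± 0.09 (adjusted p = 0.895 and 0.557), and 4 of 6 and 4 of 7 TG cultures lay below the lowest WT culture.

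Nqo1 encodes a quinone reductase and Hmox1 encodes heme oxygenase, which breaks down heme. Nqo1 without serum was 8.93, 9.90, 9.60, 9.04 and 9.44 in WT cultures and 7.88 to 10.19 (median 8.88) in TG cultures, and with serum 9.02 to 10.35 (median 9.73) in WT and 8.20 to 10.29 (median 8.72) in TG cultures. The TG cultures reached lower than any WT culture in both sets, 3 of 6 without serum and 4 of 7 with serum. Its differences were -0.39 ± 0.37 (SE, limma, adjusted p = 0.915) and -0.56 ± 0.32 (adjusted p = 0.545). Hmox1 without serum was 10.90, 11.68, 11.15, 10.21 and 10.95 in WT cultures and 9.31 to 11.84 (median 10.37) in TG cultures, and with serum 11.36 to 12.31 (median 12.01) in WT and 10.68 to 12.20 (median 11.11) in TG cultures. With serum 6 of 7 TG cultures were below the WT mean and 4 were below every WT culture. Its differences were -0.47 ± 0.41 and -0.50 ± 0.24 (adjusted p = 0.909 and 0.473). With 1 culture left out, the uncalled differences without serum ran from -0.63 to -0.17 for Nqo1, from -0.74 to -0.23 for Hmox1, from -0.63 to -0.13 for Srxn1 and from -0.38 to -0.16 for Txnrd1, again lowest without TG 5 and highest without TG 2 or, for Srxn1, WT 2.

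Sod2, the mitochondrial superoxide dismutase, lay the other way. Without serum it was 9.71, 9.33, 9.76, 9.88 and 9.62 in WT cultures and 9.51 to 10.11 (median 9.90) in TG cultures, and with serum 9.89 to 10.34 (median 10.25) in WT and 10.10 to 10.47 (median 10.39) in TG cultures. Only 1 TG culture of each set was below the WT mean, and 3 of 6 and 4 of 7 were above every WT culture. The differences were 0.19 ± 0.12 (SE, limma, adjusted p = 0.894) without serum and 0.17 ± 0.08 with serum, a ratio of 1.12 with a 95% interval of 1.00 to 1.26 (unadjusted p = 0.0470, adjusted p = 0.460).

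**Figure D2:**
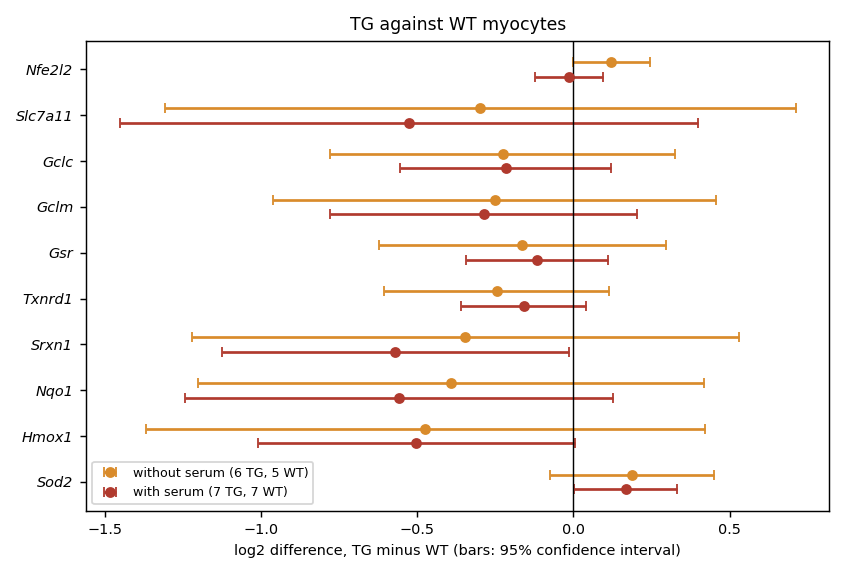
TG minus WT log2 difference (horizontal axis) of each gene without and with serum, with 95% confidence intervals from limma as bars. All 8 target genes other than Sod2 sit left of 0 in both sets and Sod2 sits right of it, and the intervals that leave out 0, Srxn1 and Sod2 with serum, do so before adjustment only.

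The other genes of the pathway were counted by list. Of 39 measured other NRF2 targets (glutathione S-transferases, pentose phosphate enzymes, ferritins, transporters and the like), 35 were lower in TG myocytes in each set, with medians of -0.12 and -0.17, and 0 passed the adjusted limma test, with 1 of 39 and 4 of 39 at an unadjusted p under 0.05, all lower. Of all probe sets 3.33% and 6.31% were lower in TG at that p (5.64% and 10.7% in either direction). The count was thus below the like share without serum and above it with serum. Genes of the list share the same cultures and are not independent, and the excess with serum was not tested. With serum the smallest p values belonged to Ptgr1, a reductase of unsaturated aldehydes and ketones, at -0.49, to Gss, which completes glutathione, at -0.17, and to Ephx1, an epoxide hydrolase, at -0.20 (adjusted p = 0.342, 0.358 and 0.398). Without serum they belonged to Gpx2, a glutathione peroxidase near the floor of the array, at -0.23, to the iron exporter Slc40a1 at -0.40, and to Aox1, an aldehyde oxidase, at -0.24 (adjusted p = 0.878 for each). The low side was thus not limited to the 10 members, while 54.7% and 56.5% of all probe sets were lower too. The mean of this list followed the 8 target genes other than Sod2 over the same cultures, at r = 0.890 to 0.983. Its count is therefore not evidence separate from that of the members. The 15 regulators of NRF2 were split, 7 lower and 8 higher without serum and 6 lower and 9 higher with serum, with medians of 0.05 and 0.01. Among them Mafg, a small MAF partner of NRF2, had the smallest p with serum at -0.21 ± 0.04 (SE, adjusted p = 0.164), and Cul3 and Rbx1, parts of the ligase that acts with KEAP1, had the smallest without serum, at 0.14 and 0.17 (adjusted p = 0.855 for both).

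Antioxidant enzymes that are not chiefly NRF2 targets were more often higher than lower in TG myocytes, 16 of 25 in each set, with medians of 0.05 and 0.03. Without serum the smallest p values belonged to Txn2 at 0.12 and Prdx3 at 0.17, the mitochondrial thioredoxin and peroxiredoxin (limma, adjusted p = 0.853 and 0.859), and to Sesn1 at 0.17. With serum they belonged to the glutaredoxin Glrx at 0.21, to Sesn2, a sestrin, at -0.42 and to Txnrd2, the mitochondrial thioredoxin reductase, at 0.24 (adjusted p = 0.310, 0.310 and 0.421). ATF4 also drives Slc7a11, so a list of Atf4 itself and its other targets was counted. Of this list 8 of 15 genes were lower without serum and 6 of 15 with serum, with medians of 0.00 in both sets. Atf4 was at 0.15 and 0.05. The smallest p in each set was that of Mthfd2, an enzyme of mitochondrial folate metabolism, at 0.17 and 0.27 (limma, adjusted p = 0.915 and 0.489). None of these list members passed the adjusted test.

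Markers of the cell types that a heart culture can hold also differed in level between TG and WT cultures. Cardiac myocyte markers were higher in TG cultures for 9 of 12 genes without serum (median 0.06) and 11 of 12 with serum (median 0.30), Myl7 being the exception with serum at -0.48. The mean log2 level of the 12 ran from 10.32 to 11.33 in WT and 10.27 to 11.45 in TG cultures without serum, and from 10.84 to 11.74 in WT and 10.96 to 11.84 in TG cultures with serum, so the labelled cell type was bright on every array. Endothelial markers were lower in TG cultures for 7 of 10 and 10 of 10 genes (medians -0.03 and -0.27), with mean levels of 5.42 to 5.96 in WT and 5.36 to 6.11 in TG without serum, and 6.26 to 7.14 in WT and 5.92 to 7.08 in TG with serum. Epicardial markers were lower for 8 of 10 and 7 of 10, fibroblast markers for 8 of 10 and 7 of 10, macrophage markers for 12 of 12 and 5 of 12, and erythroid markers, of which all 4 measured averaged under a log2 of 5, for 4 of 4 and 3 of 4. With serum the epicardial gene Lrrn4 was at -0.72 ± 0.15 (SE, limma, adjusted p = 0.172), and 0 markers passed the adjusted test in either set. In bulk cultures fewer cells of a type and less RNA per cell cannot be told apart, and the part of these markers in the differences of the 10 genes was not tested.

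The larger pattern lay between cultures of one group. The SD pooled within groups was 0.87 for Slc7a11, 0.67 for Nqo1, 0.62 for Srxn1, 0.61 for Hmox1, 0.53 for Gclm and 0.38 for Gclc, against a median of 0.16 over all probe sets. For Gsr it was 0.29, for Txnrd1 0.24, for Sod2 0.18 and for Nfe2l2 0.08. Slc7a11 varied more than 99.9% of probe sets and Nfe2l2 more than only 4.78%. The target genes did not vary one by one: when each value was taken as the deviation from its group mean, the 8 target genes other than Sod2 rose and fell together over the 25 arrays.

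Their 28 pairs had Pearson r of 0.795 (Slc7a11 with Gsr) to 0.986 (Gclm with Srxn1) and Spearman rho of 0.756 to 0.990. Every pair had an adjusted p of 4.7e-05 or less, from 100000 two-sided permutations of cultures within groups and adjusted over 145 relations, the smallest p that these can give being 1e-05. Without the 2 arrays farthest from the median of the first gene, r was 0.690 to 0.978. In the 11 arrays without serum it was 0.803 to 0.991 and in the 14 with serum 0.885 to 0.993, so the pattern was present in both sets. Gclm and Srxn1, the members whose start-site windows are printed first, correlated at 0.991 without serum and 0.981 with serum. All pairs share the same arrays, hence the same scaling, and r was 0.783 to 0.986 after a further quantile normalization and 0.821 to 0.986 with each array centred on its median. The permutation test is against no relation at all, so passing it does not set these pairs apart from other genes. By r among 19937 other genes, Srxn1 stood in place 1 for Gclm, whereas Gsr stood in place 811 for Slc7a11.

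Sod2 ran against the other targets in every pair. Its r with the 8 genes was -0.877 (Srxn1) to -0.753 (Gsr), with rho of -0.845 to -0.598 and an adjusted permutation p of 2.3e-04 or less for r. Nfe2l2 ran weakly with them, at r = 0.424 (Gsr) to 0.690 (Slc7a11), of which 7 of 8 passed the adjusted permutation test, and against Sod2 at -0.649. Within groups these values differed: Nfe2l2 ran with the 8 genes at r = 0.855 to 0.913 in the 7 WT cultures with serum and 0.578 to 0.849 in the 6 TG cultures without serum, but at -0.050 to 0.279 in the 7 TG cultures with serum, and in the 5 WT cultures without serum it was as low as -0.139 (Nqo1). The difference between groups was not tested. By r with Nfe2l2 over all groups, the 8 genes stood in places 128 (Slc7a11) to 2519 (Gsr) among 19937 other genes. Many other genes thus followed Nfe2l2 as closely, and passing the permutation test does not set the 8 genes apart from them. The lowest r of any pair of the 8 genes in any group was 0.657.

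**Figure D3:**
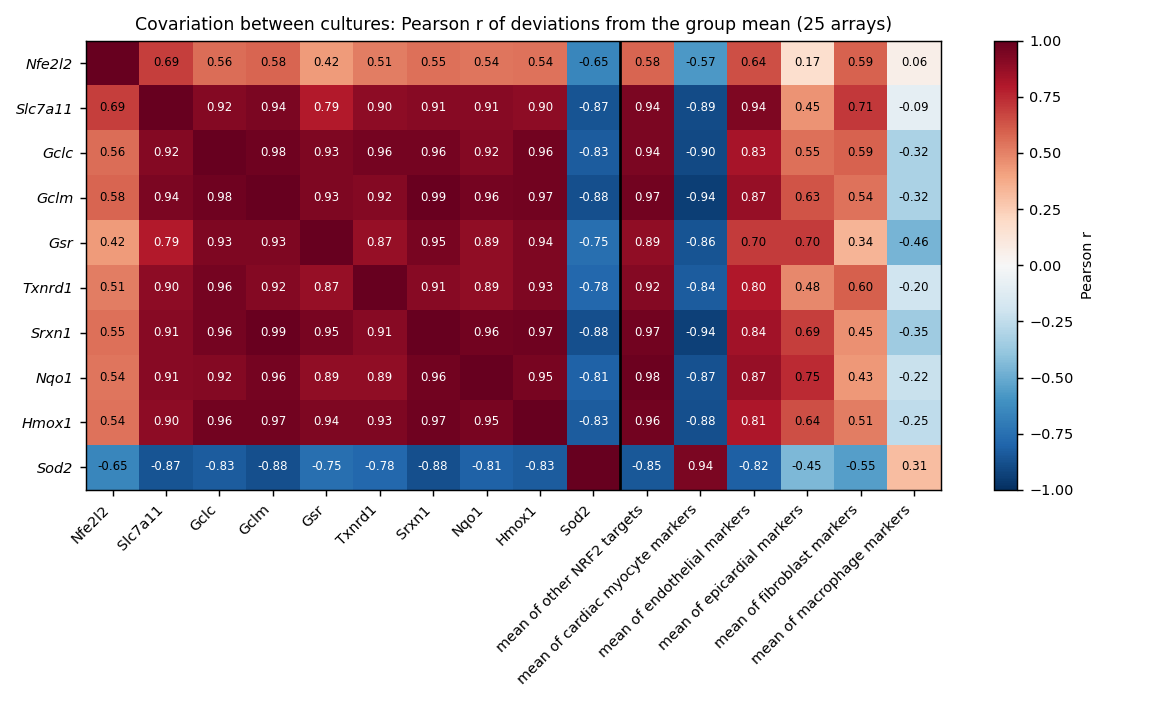
Pearson r, by colour and printed value, between the deviations from group means of each gene (vertical axis) and of the other genes and the means of 6 lists (horizontal axis) over 25 arrays. The 8 target genes form a block of 0.79 to 0.99, Sod2 and the cardiac myocyte markers are opposed to it, and Sod2 and the myocyte markers are together at 0.94.

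The mean of the other NRF2 targets followed the 8 genes at r = 0.890 to 0.983, highest for Nqo1. The mean of the ATF4 list, which holds Atf4 itself, followed them less closely at 0.522 to 0.821, highest for Slc7a11. The mean of the 12 cardiac myocyte markers ran against the 8 genes at r = -0.941 (Gclm) to -0.835 (Txnrd1) and with Sod2 at 0.943. Endothelial markers ran with the 8 genes at 0.696 to 0.936, epicardial markers at 0.453 to 0.746 and fibroblast markers at 0.34 to 0.71, while macrophage markers were at -0.464 to -0.091 and passed for none of the 8 genes. Each relation with the myocyte, endothelial, epicardial, ATF4 list and other NRF2 target means passed the adjusted permutation test. With the fibroblast mean 7 of 8 passed and with the mean of the NRF2 regulators 3 of 8. With the means of other antioxidant enzymes and of erythroid markers 0 of 8 passed.

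The cultures at the extremes can be named. Myocyte markers were more than 0.3 below the group mean in 6 arrays: WT 2 and TG 4 and TG 5 without serum, and WT 3, WT 4 and TG 6 with serum, at -0.69, -0.36, -0.78, -0.53, -0.47 and -0.65. In TG 5 without serum Gclm was 10.52, Srxn1 10.35, Hmox1 11.84 and Slc7a11 8.76, the highest of that group, and Sod2 was 9.51, the lowest. In TG 6 with serum Gclm was 10.88, Srxn1 9.89 and Slc7a11 8.86, again the highest, and Sod2 was 10.10, the lowest. WT 2 without serum and WT 3 with serum held the same places in the WT groups, so that the extremes of all 4 groups were alike. At the other end, TG 2 without serum had the lowest values of that group for Nqo1 (7.88), Hmox1 (9.31) and Gclm (8.59).

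**Figure D4:**
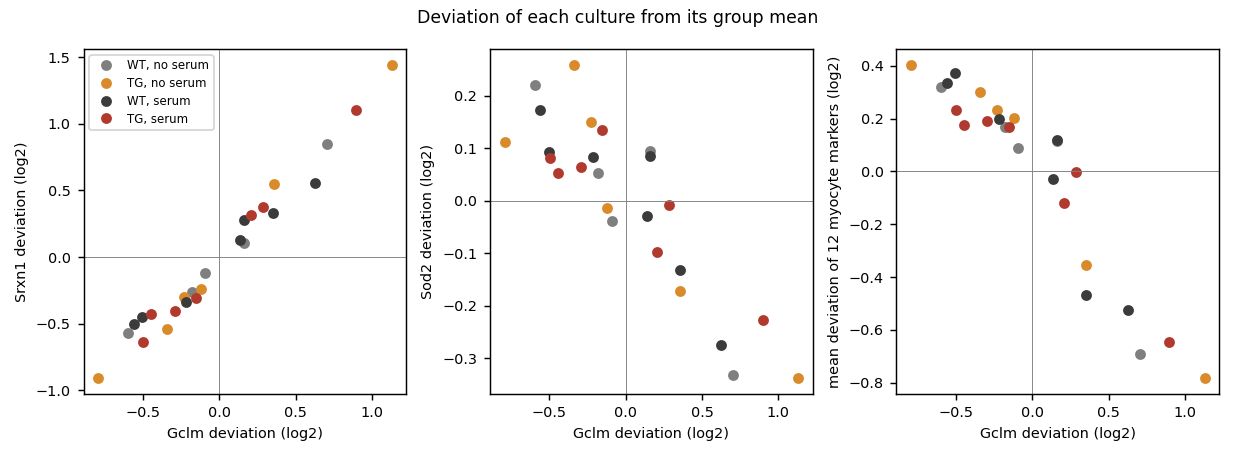
Deviation of each culture from its group mean on the log2 scale, with Gclm on the horizontal axis and Srxn1, Sod2 or the mean of 12 cardiac myocyte markers on the vertical axes, 1 point per array in the colour of its group. Srxn1 rises with Gclm along one line in all 4 groups, whereas Sod2 and the myocyte markers fall, with the 6 arrays of low myocyte markers on the right.

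With those 6 arrays left out, a choice made after seeing the data, the 28 pairs still had r of 0.567 to 0.972 over 19 arrays. The relation with myocyte markers was then -0.888 to -0.693, Sod2 stood at -0.686 to -0.291 with the 8 genes and Nfe2l2 at 0.072 to 0.545. In the comparison of TG with WT the median of the 10 members was -0.41 without serum and -0.21 with serum, and again 0 of 10 passed the adjusted limma test in either set. Without serum the differences of Nqo1, Hmox1 and Srxn1 became -0.73, -0.79 and -0.63 (adjusted p = 0.385, 0.400 and 0.307). With serum they were -0.52, -0.49 and -0.58 (adjusted p = 0.564, 0.504 and 0.433). Of these 3 genes the TG minus WT differences were thus larger without serum and close to the former values with serum. The choice of arrays was not independent of these genes, since myocyte markers ran against them. Without serum it removed TG 4 and TG 5, the highest TG cultures for all 3 genes, and from WT only WT 2. A larger difference without serum was therefore largely built into the choice.

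Among 19937 other genes ranked by r with Nqo1 over the 25 arrays, the first was Esd, an esterase and itself in the list of other NRF2 targets, at 0.968. It was followed by Plin2, which coats lipid droplets, at 0.963 and by Srxn1 at 0.963. Gclm stood 6th, Hmox1 8th, Gclc 37th, Slc7a11 46th, Gsr 124th and Txnrd1 130th. Nfe2l2 was 3082nd and Sod2 19282nd. The genes most like Nfe2l2 were Samd4b (0.821), Ifitm2 (0.817) and Sap130 (0.815), and the nearest member was Slc7a11, in place 128. These places are a description, since all genes share the same cultures.

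Serum was compared by rank, because the 2 sets were on different scales. Each probe set was given its percentile within its array, where 100 is the brightest, and these were fitted by limma. Of all probe sets 58.0% passed the adjusted test in WT (28.8% higher and 29.2% lower with serum) and 59.9% in TG myocytes (29.8% higher and 30.1% lower). Of the 10 members 3 did in WT (2 higher and 1 lower) and 2 in TG (1 higher and 1 lower). Txnrd1 stood higher with serum, at 95.6 ± 0.5 against 93.9 ± 0.7 (SD, n = 7 and 5) in WT and 94.95 ± 0.69 against 92.5 ± 1.7 (n = 7 and 6) in TG myocytes. The shifts were 1.62 and 2.42 percentile points (limma, adjusted p = 0.0255 and 9.1e-04, exact two-sided permutation p = 0.00126 and 0.00583). Gsr stood lower with serum, by -3.64 and -3.50 points (adjusted p = 0.00143 and 0.00122, exact p = 0.00126 and 0.00758). Glutathione reductase and thioredoxin reductase both spend NADPH to reduce a carrier, and their shifts had opposite signs in both genotypes. The call of Txnrd1 in WT myocytes was lost when genes only were ranked (limma, adjusted p = 0.0593) and without WT 4 of the cultures without serum (adjusted p = 0.0819).

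Nfe2l2 was higher with serum in WT myocytes, at 90.9 ± 0.5 against 89.4 ± 0.6, a shift of 1.53 (limma, adjusted p = 6.3e-04, exact p = 0.00126), and in TG myocytes by 0.71, which did not pass (adjusted p = 0.0687, exact p = 0.0262). In WT these 3 genes did not overlap between the sets, as 35.9% of probe sets did not, and in TG no member was free of overlap, against 35.2%. The other members shifted by less than their spread or did not pass: Srxn1 by -2.12 and -3.83, Nqo1 by -1.39 and -2.32, Slc7a11 by -1.50 and -3.29, Hmox1 by 0.66 and 1.12, Gclc by 0.631 and 1.102, Gclm by 0.46 and 0.62 and Sod2 by -0.09 and -0.04. The median absolute shift of the members was 1.44 and 1.72 points against 3.45 and 3.46 over all probe sets. Most members stood near the top of the percentile scale, where there is little room to rise. In WT without serum, for example, Hmox1 was at 98.1, whereas Slc7a11 was at 78.9. The smaller median therefore does not show that serum moved the members less than other genes. Ranks do not depend on the scale of an array, but a shift with serum and any separate normalization or handling of the sets cannot be told apart.

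**Figure D5:**
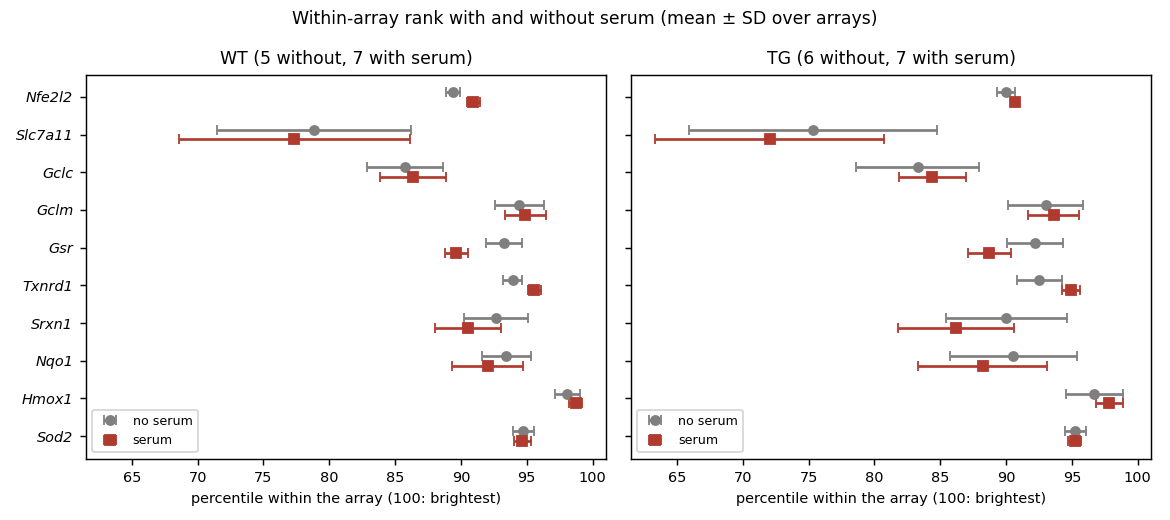
Percentile of each gene within its array (horizontal axis) without and with serum in WT and TG myocytes, as mean and SD over arrays. Gsr lies to the left and Txnrd1 to the right with serum in both genotypes, and the bars of most other genes overlap.

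The effect of the transgene with serum did not differ detectably from that without serum for any member. In 1 fit over the 25 arrays the difference of the TG effects was -0.14 ± 0.07 (SE) for Nfe2l2, the member with the smallest unadjusted p at 0.0818, and between -0.23 (Slc7a11) and 0.09 (Txnrd1) for the others. The adjusted limma p was 0.9997 for each, and 1 of 35557 probe sets passed (0.00281%). At an unadjusted p under 0.05 there were 0 members, against 4.26% of probe sets. The 95% interval for Nqo1 ran from -1.21 to 0.88, so that a change of the effect by more than 1 on the log2 scale fits within it. This fit set log2 values of both serum sets side by side, although they lay on different scales. It also used 1 residual variance per probe set, while the median residual SD was 0.115 without and 0.174 with serum. A change of the TG effect and the difference in scale cannot be told apart in it.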

How the data were processed

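Transcripts of 25 neonatal mouse cardiac myocyte cultures were assayed on Affymetrix Mouse Gene ST arrays. The authors ran RMA in Expression Console 1.1 and deposited log2 values of 35557 probe sets. No column of the table was set aside (0 columns). Whether arrays with and without serum were normalized together is not given in the sources used here. Precision is limited by the number of arrays, which carry no read depth. The platform annotation named 1 gene for 21789 probe sets, several for 1621 and none here for 12147, and a gene with several probe sets was represented by the brightest on average (19938 genes).

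TG and WT groups were compared within each serum set with limma 3.58.1 (lmFit, eBayes) in R 4.3.3 over all probe sets, with Benjamini-Hochberg adjustment and a threshold of 0.05. Serum was tested on within-array percentiles, with exact permutation tests for single genes, and covariation by 100000 permutations within groups. The scripts were tested on simulated data. Named were all members, Hey2, of each of 10 other lists (152 of 164 entries matched) the genes past the adjusted test or else the 3 with the smallest p, not all of which are printed, and the 3 genes most like Nqo1 and Nfe2l2. Members and lists were chosen with earlier results of these data known. Alternatives were 1 fit over all arrays, weights per array, a trend in the prior variance, a further quantile normalization, centring, leaving out dim probe sets (mean log2 under 5), averaging the probe sets of a gene, a replicate block and leaving out each array. Promoter windows came from RefSeq, GRCm38.p6.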

Additional observations from a re-analysis of the deposited data

How the results depend on the processing

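Every member's TG minus WT difference kept its direction and stayed past no adjusted threshold under all alternatives run, except Nfe2l2 with serum, which turned to 0.0347 with each array centred and 0.0163 without the arrays low in myocyte markers, and ran from -0.0294 to 0.0131 with 1 array left out. The median of the members with 1 array left out ran from -0.45 to -0.09 without serum and from -0.37 to -0.16 with serum, with 0 members called. Over all probe sets with serum, 3 passed; 141 did in 1 fit over all 25 arrays, 5 after quantile normalization again, 5 with centring, 5 without dim probe sets, 1 when the probe sets of a gene were averaged and 1 with the replicate block, and 1 to 3 with 1 array left out (1 without WT serum replicate 1, 3, 4 or 6 or TG serum replicate 2, 5 or 6). Without serum 1 passed when the arrays low in myocyte markers were left out. Culture numbers did not pair the samples (same-number r of residuals -0.449 to 0.150 without serum and -0.360 to 0.062 with serum), and the replicate block called no member. In the absence of serum, culture numbers in a figure legend of the study differ from those of the labels, so this check and the block may have joined cultures that do not belong together. Centring moved the share of probe sets higher in TG, among those with an unadjusted p under 0.05, from 41% to 75% without serum and from 41% to 75.9% with serum. By rank, 20617 of 35557 probe sets passed for serum in WT and 21298 in TG myocytes. When ranking genes only, 11977 and 12365 of 19938 genes passed, and without dim probe sets 10535 and 10810 passed. Fewer features were tested in these runs, so the lower counts are not in themselves a loss of calls. The WT call of Txnrd1 was lost when ranking genes only (adjusted p = 0.0593) and without WT no serum replicate 4 (adjusted p = 0.0819). In TG myocytes Nfe2l2 passed without dim probe sets (1.35 points, adjusted p = 0.0462) and without TG no serum replicate 4 (adjusted p = 0.0256), Srxn1 without TG no serum replicate 2 or TG serum replicate 6 (-5.01 and -5.02), and Hmox1 without TG no serum replicate 5 (1.62). Uncalled serum shifts near 0 changed sign with 1 array left out: in WT the range of Slc7a11 was -4.40 to 0.49, of Sod2 was -0.40 to 0.12, of Gclc was -0.42 to 1.59 and of Gclm was -0.19 to 1.07, and in TG that of Sod2 was -0.31 to 0.13, of Gclc was -0.27 to 2.59 and of Gclm was -0.20 to 1.44. Differences of the TG effects changed sign by percentile rank for Hmox1 (0.46), Gclm (0.16) and Sod2 (0.0469) and after quantile normalization for Hmox1 (0.0131) and Sod2 (0.00625), with 0 probe sets past the adjusted limma test in either. With 5 to 7 arrays a group and an SD of up to 0.87, differences such as those of Slc7a11 were not detectable here.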
